A study of Mus musculus with 12 samples.

Results

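Transcripts of 10 ligands of the tumour necrosis factor (TNF) superfamily were followed in RAW264.7 cells, a mouse macrophage-like line derived from a virus-induced tumour. The ligands were Tnf, Lta, Ltb, Tnfsf9, Tnfsf10, Tnfsf12, Tnfsf13, Tnfsf13b, Tnfsf14 and Tnfsf15, taken by symbol from a table of 53801 gene records. Of the 10, 8 reached the level needed for a test, which was 1 FPKM in 3 or more of the 12 libraries, and Tnfsf13b and Tnfsf14 did not. FPKM scales fragments to transcript length and to the size of the library, so levels of different genes can be set side by side. The study asked how cells treated to silence Synbindin respond to lipopolysaccharide (LPS), a part of the bacterial outer membrane that cells detect through Toll-like receptor 4. Synbindin is the product of Trappc4 and belongs to the TRAPP complexes, which tether transport vesicles. Control cells carried a control small interfering RNA (siRNA), and silenced cells carried a Synbindin siRNA. Each kind was sequenced without LPS and after 4 h in 100 ng/ml LPS, giving 4 groups of 3 libraries. All groups were the same cell line in the same medium with serum. The labels do not tell whether the 3 libraries of a group came from separate cultures, so the p-values below describe only the spread between these libraries.

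Ligands of this superfamily are made as trimers anchored in the membrane, and many are cut free by proteases. Tnf is the founding member and a main early cytokine of macrophages that sense LPS. It acts through the receptors Tnfrsf1a and Tnfrsf1b, which feed NF-kB, MAP kinase and cell death pathways. Lta and Ltb, the lymphotoxins, act in lymphoid tissue. Tnfsf9, Tnfsf14 and Tnfsf15 costimulate T cells, Tnfsf10 and Tnfsf12 bind receptors linked to cell death or tissue repair, and Tnfsf13 and Tnfsf13b support B cells.

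Tnf sits in a small ligand cluster on chromosome 17 of GRCm38, with Ltb at chr17:35194439-35196320 (plus strand), Tnf at chr17:35199381-35202007 (minus strand) and Lta at chr17:35203165-35205351 (minus strand). The 3 genes span 10.9 kb, with 3.06 kb between Ltb and Tnf and 1.16 kb between Tnf and Lta, and no other protein-coding gene lies between them. Farther along the chromosome lie Tnfsf9 at chr17:57105325-57107757 (plus strand) and Tnfsf14 at chr17:57189492-57194177 (minus strand), with the ligand gene Cd70 between them. Tnfsf10 is at chr3:27317028-27342427, Tnfsf13b at chr8:10006467-10039072 (both plus strand) and Tnfsf15 at chr4:63727084-63745113 (minus strand). Lta, Ltb, Tnfsf9 and Tnfsf13b overlap the microRNA or predicted genes Mir6974, Mir6973a, Gm11110 and Gm44789, and fragments there could be split between records. The stretches before the starts of these 4 genes are shown because Tnf and Tnfsf15 were the members that differed between silenced and control cells, and Lta and Ltb are the neighbours of Tnf. They come from RefSeq on build GRCm38.p6, run 5′ to 3′ on the strand of the gene, and end at the base before the gene start in the coordinates above. For Tnf and Lta the RefSeq start is the same base. For Ltb and Tnfsf15 it lies farther into the gene, so their stretches, of 182 and 196 bases, stop short of it. Relaxed matches lying 40 to 29 bases before the RefSeq start of Ltb are therefore not shown. Capitals mark matches, on either strand, to the 10-letter NF-kB consensus, to its relaxed form (GGG, then any 5 bases, then CC) or to the TATA box TATAAA.
Tnf, chr17:35202008-35202257: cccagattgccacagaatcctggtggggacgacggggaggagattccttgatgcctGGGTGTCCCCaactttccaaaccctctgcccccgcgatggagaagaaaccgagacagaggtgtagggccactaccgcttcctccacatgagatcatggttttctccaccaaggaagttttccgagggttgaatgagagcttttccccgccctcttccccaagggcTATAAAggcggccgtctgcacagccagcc
Lta, chr17:35205352-35205601: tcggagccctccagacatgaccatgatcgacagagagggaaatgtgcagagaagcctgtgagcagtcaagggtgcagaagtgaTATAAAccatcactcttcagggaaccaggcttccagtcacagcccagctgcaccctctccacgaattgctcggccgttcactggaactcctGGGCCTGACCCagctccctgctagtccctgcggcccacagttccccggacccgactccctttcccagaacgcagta
Ltb, chr17:35194257-35194438: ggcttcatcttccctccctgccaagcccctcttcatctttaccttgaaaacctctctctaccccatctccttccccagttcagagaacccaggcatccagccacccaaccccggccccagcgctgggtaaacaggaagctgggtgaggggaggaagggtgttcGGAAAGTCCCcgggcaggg
Tnfsf15, chr4:63745114-63745309: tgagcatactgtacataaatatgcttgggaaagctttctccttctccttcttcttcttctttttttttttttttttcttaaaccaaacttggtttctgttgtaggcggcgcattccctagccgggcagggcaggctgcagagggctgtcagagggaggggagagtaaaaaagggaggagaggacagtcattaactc

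The RefSeq promoter table, with windows from 250 bases before to 50 after each start, held 8 of the 10 members, without Tnfsf9 and Tnfsf12. The NF-kB consensus was found in the Ltb window among these members, as GGGACTTTCC on the opposite strand, beginning 87 bases before the RefSeq start. Over all 32851 promoters in the table, 4.51% held this consensus. The relaxed form, which includes the consensus, was in the windows of Tnf, Lta, Ltb, Tnfsf13 and Tnfsf14 and in 50.8% of all promoters. TATAAA lay 29 bases before the Tnf start and 167 bases before the Lta start, and 13.6% of all promoters held it. The ETS motif GGAAGT (23.8% of promoters) lay 83 bases before the Tnf start, and the AP-1 motif TGANTCA (7.81% of promoters) was in the windows of Tnfsf13, Tnfsf13b and Tnfsf14. The windows of Tnfsf15 and Tnfsf10 held none of these 5 motifs. These matches describe letters in a window and say nothing of which factors bind there.

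Silencing was checked first at the transcript of Trappc4. This gene overlaps Rps25, and fragments there could be split between records. Without LPS the level of Trappc4 was 5.89 ± 1.43 FPKM (SD, n = 3) in silenced libraries and 13.2 ± 0.79 FPKM in control libraries, 44.5% of control. After LPS it was 7.28 ± 1.26 FPKM and 12.98 ± 3.22 FPKM, 56.1% of control. The groups did not overlap at either time, and the 2-sided exact permutation p was 0.1 each time, the smallest that 3 against 3 allows. In the fit over all genes Trappc4 did not pass the test at either time (limma adjusted p = 0.0558 without LPS and 0.120 after LPS). Estimated depth was 7.33 to 17.6 M (mega) fragments per library. The mitochondrially encoded share of summed FPKM was 17.1% to 18.7% in control and 15.3% to 16.8% in silenced libraries without LPS, with no overlap. After LPS it was 12.2% to 13.1% and 12.8% to 13.8%. Its part in the LPS responses, the silencing effects and the interaction was not tested. After LPS every silenced library (13.7 to 17.6 M) was deeper than every control library (10.1 to 13.03 M). All 8 macrophage markers on a list had mean FPKM of at least 1 in every group, while Cd3d, Cd3g, Cd8a, Zap70, Nkg7 and Ncr1 of 9 T and NK cell markers, S100a9, Ly6g and Mpo of 5 neutrophil markers, and Col1a2 and Pdgfra of 6 fibroblast and endothelial markers were at 0 in all 12 libraries. Lck, a kinase of T cells, was the T and NK cell marker that reached a mean FPKM of 1 in a group, at 1.80 ± 0.14 FPKM in silenced and 1.14 ± 0.23 FPKM in control cells after LPS (SD, n = 3) and 0.42 and 0.58 FPKM without LPS.

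Before LPS, 4 of the 10 ligands carried most of the signal. Tnf was the most abundant at 50.4 ± 3.20 FPKM in control cells (SD, n = 3), ahead of Tnfsf9 at 26.7 ± 2.17 and Ltb at 13.4 ± 4.15, with Tnfsf12 at 7.88 ± 5.77. The ranges of Ltb and Tnfsf12 overlapped, and so did those of Tnfsf12 and Tnfsf13. Tnfsf13 and Tnfsf13b had means of 1.68 and 0.63 FPKM. Lta, Tnfsf10, Tnfsf15 and Tnfsf14 were at or near the detection limit, with 0.18 FPKM as their highest value in a control library, and their order cannot be told from these libraries. For Lta, which has 1 annotated transcript, 1 fragment was worth roughly 0.0411 to 0.0987 FPKM, and for Tnfsf15 0.017 to 0.0408 FPKM. The first 4 ranks were held by the same genes in silenced cells without LPS.

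**Figure D1:**
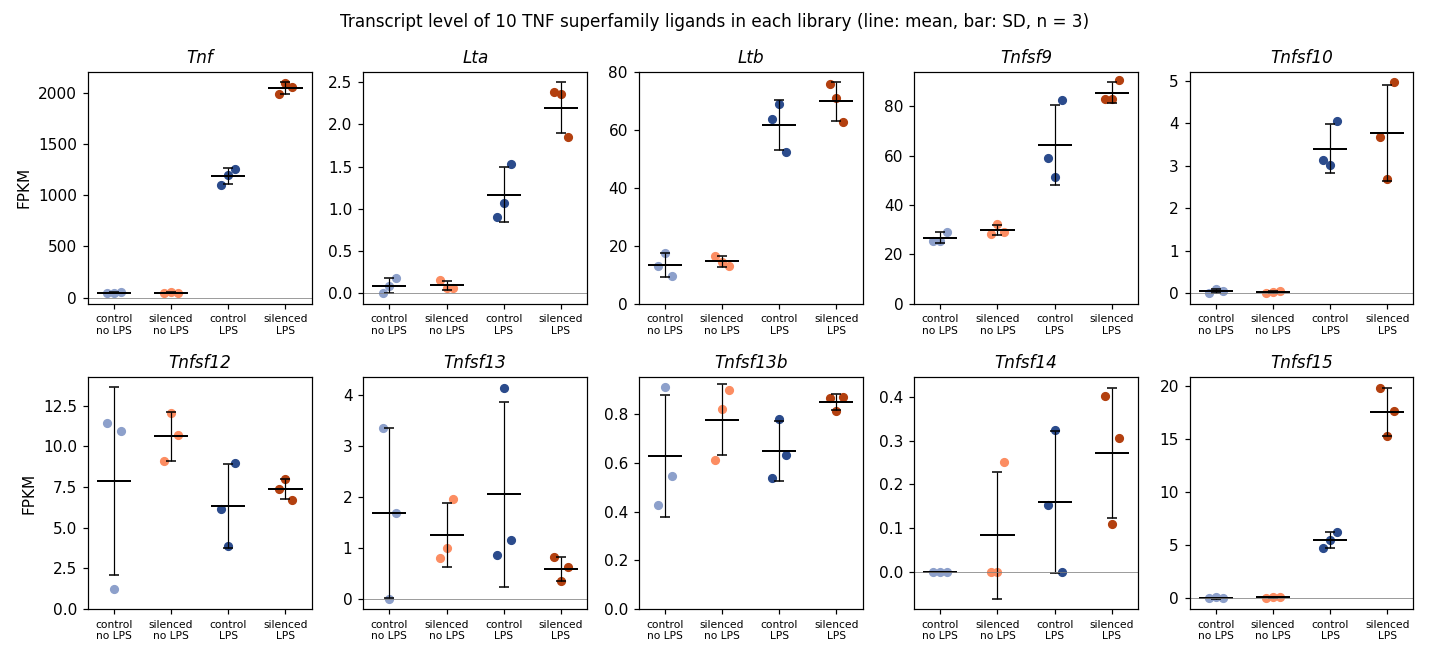
FPKM (vertical axis, linear, a scale of its own in each panel) of the 10 ligands in each of the 12 libraries by group, with the mean as a line and the SD as a bar (n = 3). Tnf rises from 50.4 FPKM to 1185 FPKM in control cells and from 48.4 FPKM to 2043 FPKM in silenced cells, and the 3 silenced libraries of Tnf and of Tnfsf15 after LPS lie above the 3 control libraries.

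LPS raised 6 of the 8 tested ligands in control cells, namely Tnf, Lta, Ltb, Tnfsf9, Tnfsf10 and Tnfsf15, and lowered none (limma, adjusted p under 0.05). Over all genes tested, 15.3% were called higher and 32.9% lower. The median log2 fold change of the 8 ligands was 1.64, and that of all tested genes was -0.17. Lta, Tnfsf10 and Tnfsf15 reached the level for a test only through libraries after LPS, with at most 0.18, 0.10 and 0.15 FPKM without it. Their entry into the test was tied to a rise, so the count of 6 of 8 and the ligand medians are partly set by the filter. In silenced cells the same 6 ligands rose and none fell, against 13% and 35.5% of all genes, with a median of 1.86 for the ligands and -0.21 for all genes. Median-ratio scaling moved the medians of all genes to -0.02 and -0.01, which raised the share of called genes that were higher from 31.7% to 48.1% in control cells and from 26.8% to 48.1% in silenced cells. All 6 ligands passed the test, in the same direction, under both other scalings.

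Tnf had the highest level of the 10 ligands in each group. Its 3 control libraries stood at 50.9, 47.0 and 53.3 FPKM without LPS and at 1100, 1196 and 1258 FPKM after LPS. The mean rose 23.5-fold (log2 fold change 4.53 ± 0.08 SE, limma adjusted p = 3.7e-11). In silenced cells the libraries went from 44.7, 53.6 and 46.7 FPKM to 1982, 2093 and 2054 FPKM. This was a 42.2-fold rise of the mean (5.38 ± 0.08, limma adjusted p = 1.04e-11). Among all gene records, Tnf went from rank 903 by mean FPKM to rank 32 in control cells and from rank 987 to rank 17 in silenced cells. Its share of the summed FPKM of the 10 ligands rose from 50% ± 1.17 to 89.1% ± 0.46 in control cells and from 45.6% ± 1.15 to 91.6% ± 0.44 in silenced cells (SD, n = 3).

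The lymphotoxins also rose, from very different levels. Ltb, which anchors lymphotoxin heterotrimers in the membrane, stood at 13.01, 17.7 and 9.43 FPKM in control libraries without LPS and at 63.8, 69.1 and 52.3 FPKM after LPS, a 4.61-fold rise of the mean (2.16 ± 0.19, limma adjusted p = 3.34e-06). In silenced cells Ltb rose 4.77-fold, from 16.6, 14.5 and 12.9 to 76.0, 71.2 and 62.7 FPKM. Lta, the soluble partner of Ltb, was listed at 0, 0.09 and 0.18 FPKM in control libraries without LPS and at 0.91, 1.07 and 1.53 FPKM after LPS (0.99 ± 0.16, limma adjusted p = 0.000332). All Lta values before LPS lay at a few fragments or fewer. In silenced cells Lta went from 0.15, 0.07 and 0.06 to 2.38, 2.36 and 1.85 FPKM (1.55 ± 0.16, limma adjusted p = 1.08e-05). Even after LPS, Lta stayed far below its neighbours Tnf and Ltb in every library.

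Among the costimulatory ligands, Tnfsf9, the ligand of Tnfrsf9, was well expressed before LPS and rose 2.41-fold in control cells, from 25.5, 25.4 and 29.2 to 59.2, 51.1 and 82.6 FPKM (1.21 ± 0.14, limma adjusted p = 3.71e-05). In silenced cells it rose 2.86-fold, from 28.3, 32.2 and 29.1 to 82.9, 83.0 and 90.6 FPKM (1.49 ± 0.14, limma adjusted p = 7.2e-06). Tnfsf15, a ligand of Tnfrsf25, was barely detected before LPS. It went from 0, 0.09 and 0.04 FPKM to 4.73, 5.50 and 6.23 FPKM in control libraries (2.63 ± 0.12, limma adjusted p = 3.15e-08), and from 0.09, 0.15 and 0.12 to 19.8, 15.3 and 17.7 FPKM in silenced libraries (4.05 ± 0.12, limma adjusted p = 7.76e-10). Tnfsf14 did not reach the level for a test. It was listed at 0 in all 3 control libraries without LPS, and its highest value in any library was 0.40 FPKM, in a silenced library after LPS.

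Of the ligands linked to cell death, Tnfsf10, also called TRAIL, went from at most 0.10 FPKM in any library without LPS to 3.15, 3.01 and 4.07 FPKM in control cells (2.06 ± 0.17, limma adjusted p = 2.75e-06) and 3.67, 2.70 and 4.97 FPKM in silenced cells (2.20 ± 0.17, limma adjusted p = 1.51e-06). Tnfsf12, also called TWEAK, and the B-cell ligand Tnfsf13, also called APRIL, did not pass the test in either kind of cell. Tnfsf12 had a log2 fold change of 0.02 ± 0.53 in control cells and -0.47 ± 0.53 in silenced cells. In silenced cells its libraries after LPS (6.74 to 7.98 FPKM) did not overlap those without LPS (9.10 to 12.1 FPKM), as for 41.9% of tested genes. A fit of the 2 silenced groups alone gave Tnfsf12 a limma adjusted p of 0.0161 there, where the fit over all 12 libraries gave 0.499. Tnfsf13b, also called BAFF, was between 0.43 and 0.91 FPKM in all 12 libraries and was not tested.

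**Figure D2:**
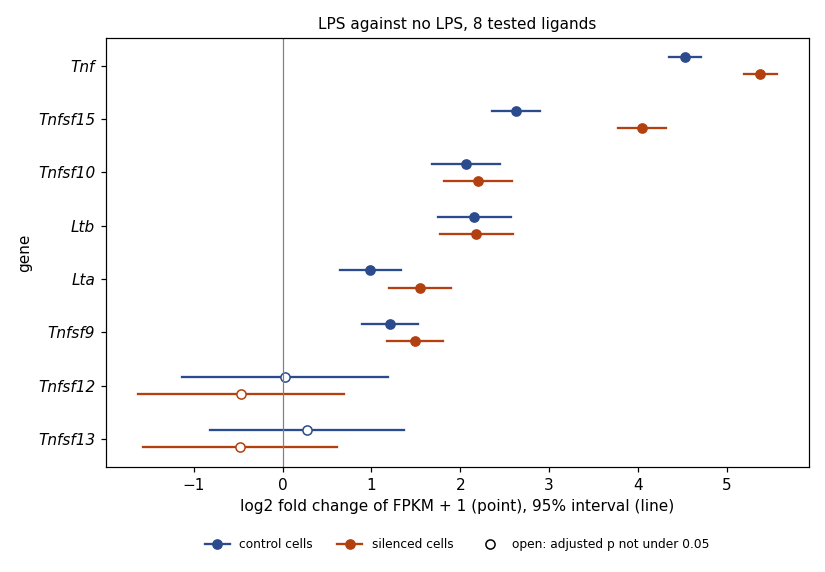
Log2 fold change of FPKM + 1 after LPS against none (horizontal axis) with its 95% interval for the 8 tested ligands, in control cells (blue) and silenced cells (red), with open circles where the adjusted p was not under 0.05. Tnf (4.53 and 5.38) and Tnfsf15 (2.63 and 4.05) are the members whose intervals in the 2 kinds of cell do not overlap.

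Without LPS, silencing moved no tested ligand past the test (limma, 0 of 8, and 0 of 8 at an unadjusted p under 0.05). Over all genes, 0.214% passed, and 1565 of 13078 had an unadjusted p under 0.05 (limma). None of the 10 ligands had groups that did not overlap, where 9.86% of tested genes did not overlap with silenced cells higher and 8.35% with silenced cells lower. The difference for Tnf was -0.06 ± 0.08 (95% interval -0.24 to 0.12), that for Tnfsf9 0.16 ± 0.14 and that for Ltb 0.16 ± 0.19. For Tnfsf12 the interval ran from -0.42 to 1.90, which leaves changes of either sign within it.

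After LPS, 2 of the 8 tested ligands, Tnf and Tnfsf15, were higher in silenced than in control cells and none was lower (limma, adjusted p under 0.05). Over all genes, 0.314% were called higher and 0.405% lower, 0.719% in all. The median log2 fold change of the 8 ligands was 0.34, and that of all tested genes was -0.03. Of the 8 tested, 4 had every silenced library above every control library (Tnf, Lta, Tnfsf9 and Tnfsf15), as 7.62% of all tested genes did, and 1 had every silenced library below (Tnfsf13), as 11.3% did. Of the called genes, 43.6% were higher in silenced cells, and this share was 61.6% with median-ratio scaling and 73.7% with quantile normalization.

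In the libraries after LPS given above, the lowest silenced value of Tnf (1982 FPKM) lay well over the highest control value (1258 FPKM). Tnf was 1.72-fold higher in silenced cells, 2043 ± 56.3 against 1185 ± 79.7 FPKM (SD, n = 3; log2 fold change 0.79 ± 0.08 SE, 95% interval 0.60 to 0.97, limma adjusted p = 0.00319). Tnfsf15 was 3.21-fold higher, 17.6 ± 2.26 against 5.49 ± 0.75 FPKM (1.52 ± 0.12, 95% interval 1.25 to 1.79, limma adjusted p = 0.000709). Both calls held when any 1 library was left out, with adjusted p of 0.00352 to 0.0320 for Tnf and 0.00129 to 0.00711 for Tnfsf15. Both missed the threshold when only the 6 libraries after LPS were fitted, with an adjusted p of 0.0522 each and the same fold changes. With estimated depth as a covariate the values were 0.83 (adjusted p = 0.00838) for Tnf and 1.53 (adjusted p = 0.00354) for Tnfsf15. The summed level of the 8 macrophage markers was also higher in silenced libraries, at 2009 to 2740 FPKM against 1496 to 1885 FPKM after LPS and at 2156 to 2614 FPKM against 1568 to 1685 FPKM without LPS. This raw sum weighs each marker by its level. The 9 T and NK cell markers summed to 1.67 to 1.99 FPKM in silenced and 0.88 to 1.301 FPKM in control libraries after LPS. Nearly all of that was Lck alone, at 1.67 to 1.95 FPKM and 0.88 to 1.301 FPKM, so it does not speak for the list as a whole. The part of these marker levels in the result was not tested, and in bulk RNA a difference in cell make-up and a difference in RNA per cell cannot be told apart.

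The other members did not pass the test. Lta was 2.19 ± 0.30 FPKM in silenced and 1.17 ± 0.32 FPKM in control cells after LPS, a ratio of 1.88 (0.57 ± 0.16, limma adjusted p = 0.141). Tnfsf9 was 85.5 ± 4.40 against 64.3 ± 16.3 FPKM, a ratio of 1.33 (0.43 ± 0.14, limma adjusted p = 0.221). The Tnfsf9 groups were separated only by the gap between 82.6 FPKM, the highest control library, and 82.9 FPKM, the lowest silenced one. Without that control library, replicate 3, the difference of Tnfsf9 was 0.63 and passed the test (limma adjusted p = 0.0325). It did not pass in the other 11 fits that left out 1 library, and without control replicate 2 after LPS the difference was 0.29 (limma adjusted p = 0.542). Ltb and Tnfsf10 had overlapping groups, with differences of 0.18 ± 0.19 (95% interval -0.23 to 0.59) and 0.10 ± 0.17 (-0.29 to 0.48). Tnfsf13b, untested, was between 0.81 and 0.87 FPKM in silenced and between 0.54 and 0.78 FPKM in control libraries.

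**Figure D3:**
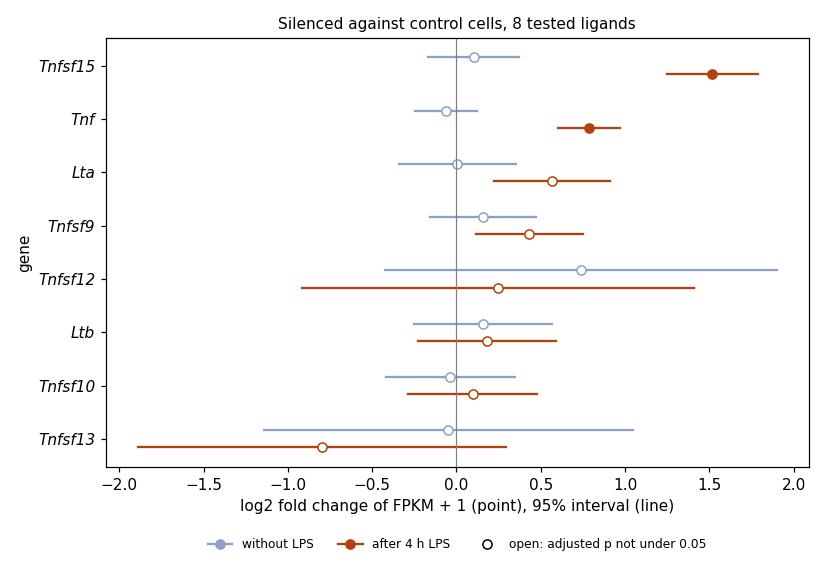
Log2 fold change of FPKM + 1 in silenced against control cells (horizontal axis) with its 95% interval for the 8 tested ligands, without LPS (blue) and after LPS (red), with filled circles where the adjusted p was under 0.05. After LPS, Tnfsf15 (1.52) and Tnf (0.79) are filled, no ligand is filled without LPS, and the intervals of Tnfsf12 and Tnfsf13 are the widest.

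The interaction asks whether the silencing effect after LPS differs from that without LPS. It passed the test for Tnf and Tnfsf15 among the 8 ligands (limma), and 0.0612% of all genes passed, 0.0382% in the same direction. The difference of the effects was 0.85 ± 0.12 for Tnf (95% interval 0.59 to 1.11, adjusted p = 0.0344) and 1.42 ± 0.17 for Tnfsf15 (1.03 to 1.80, adjusted p = 0.0161). Leaving out 1 library ended the Tnf call in 10 of 12 fits and the Tnfsf15 call in 6 of 12. It was 0.56 ± 0.22 for Lta (adjusted p = 0.384) and 0.28 ± 0.20 for Tnfsf9 (adjusted p = 0.643). For Ltb, the other neighbour of Tnf, it was 0.02 ± 0.26, with a 95% interval of -0.55 to 0.60. The Tnfsf15 interaction rests on values without LPS that lie near the detection limit, and with a pseudocount of 0.1 it was 1.01 with an adjusted p of 0.377.

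Tnfsf12 and Tnfsf13 are neighbours on chromosome 11, at chr11:69686250-69695849 and chr11:69682846-69685784 (both minus strand), 465 bases apart. Both are overlapped by Tnfsfm13, a readthrough gene that joins them, and by the antisense gene Tnfsf13os. How the authors' quantification shared fragments among these records cannot be seen from the table, so the level of each is uncertain. Tnfsf12 was at 11.4, 1.23 and 10.97 FPKM in control libraries without LPS, 9.10, 12.1 and 10.7 FPKM in silenced ones, 6.17, 3.86 and 8.999 FPKM in control libraries after LPS, and 7.38, 7.98 and 6.74 FPKM in silenced ones. Tnfsf13 was listed at 3.35, 0 and 1.69 FPKM, then 0.80, 0.99 and 1.96, then 0.85, 4.15 and 1.15, then 0.81, 0.34 and 0.61 FPKM in the same order. Control replicate 2 without LPS was the lowest of the 12 libraries for both genes. Tnfsfm13, added after its values were seen, had group means of 4.25 to 5.45 FPKM. The 3 records together summed to 5.98 FPKM in that control library and to 10.6 to 18.8 FPKM in the other libraries. Without that library, the LPS response of Tnfsf12 in control cells was -0.79 and passed the test (limma adjusted p = 0.021). Tnfsf13 after LPS was lower in silenced cells by its groups (highest 0.81 FPKM, against a lowest control value of 0.85 FPKM), with a log2 difference of -0.80 ± 0.50 and a limma adjusted p of 0.548.

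**Figure D4:**
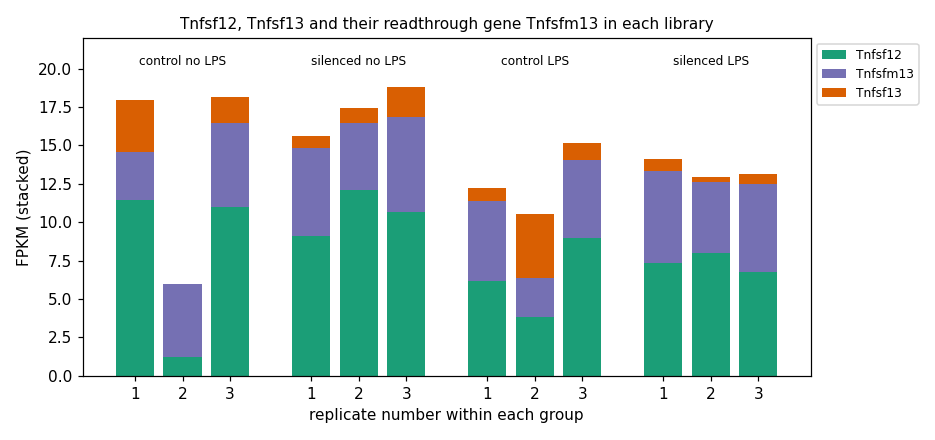
Stacked FPKM (vertical axis, from 0) of Tnfsf12, Tnfsfm13 and Tnfsf13 in each of the 12 libraries, by group and replicate number. Control replicate 2 without LPS sums to 5.98 FPKM with Tnfsf13 listed at 0, and the split between the 3 records changes from library to library.

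The other ligands of the superfamily were mostly silent. Of 8 listed, Tnfsf8 and Tnfsf4 were tested, and Tnfsf11, Cd40lg and Fasl were at 0 in all 12 libraries. Tnfsf8, the ligand of CD30, lies 86.2 kb from Tnfsf15 with no protein-coding gene between them. After LPS it was at 4.43, 4.17 and 3.74 FPKM in silenced and 2.58, 2.10 and 1.88 FPKM in control libraries, a ratio of 1.88 (0.69 ± 0.13, limma adjusted p = 0.0417). That call was lost in 11 of the 12 fits that left out 1 library, with adjusted p of up to 0.161, and kept without control replicate 2 before LPS (adjusted p = 0.0439). It was kept in 3 of the 9 other settings that tested Tnfsf8 (adjusted p up to 0.142). Without LPS, Tnfsf8 was also higher in every silenced library, at 1.87 to 2.25 against 1.17 to 1.71 FPKM (limma adjusted p = 0.389). Such separation held for 9.86% of tested genes. The interaction of Tnfsf8 was 0.38 ± 0.18 (limma adjusted p = 0.46). Tnfsf4, the ligand of OX40, was at 0 in each of the 6 libraries without LPS. After LPS its means were 1.14 FPKM in silenced and 0.47 FPKM in control cells (0.55 ± 0.15, limma adjusted p = 0.137). Tnfsf4 reached the level for a test only in silenced libraries after LPS, at 1.07 to 1.22 FPKM against at most 0.65 FPKM in control libraries. Its difference and the median of this list are therefore partly set by the filter.

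Receptors of these ligands were next compared. Of 14 listed, 9 were tested, and none passed for silenced against control after LPS (limma), with a median of -0.11. None had an unadjusted p under 0.05 there, where 1697 of all 13078 tested genes did. Tnfrsf1b, the second Tnf receptor, was 280 ± 34.0 FPKM in silenced and 233 ± 49.97 FPKM in control cells after LPS (adjusted p = 0.432). Its LPS response was 4.38 in control and 4.39 in silenced cells. Tnfrsf9, the receptor of Tnfsf9, was 5.74 ± 1.56 FPKM in silenced and 8.41 ± 1.92 FPKM in control cells after LPS (adjusted p = 0.447). LPS raised 3 of the 9 tested receptors and lowered 3 in control cells (15.3% and 32.9% of all genes), and raised 3 and lowered 4 in silenced cells (13% and 35.5%). Tnfrsf25, the receptor of Tnfsf15, was below the level for a test, with at most 0.21 FPKM in any library.

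Genes for shedding and maturation, which release membrane-bound ligands, had 7 of 9 members tested. None passed for silenced against control after LPS (limma), with a median of 0.12. Of the 7, 3 had an unadjusted p under 0.05, as did 1697 of all 13078 tested genes. Adam17, the protease that sheds Tnf, was 48.0 ± 2.69 FPKM in silenced and 37.5 ± 1.35 FPKM in control cells after LPS, with no overlap (0.35 ± 0.08, adjusted p = 0.0717). With median-ratio scaling Adam17 passed, at 0.39 with an adjusted p of 0.0475, but it did not pass in the other 9 settings (adjusted p up to 0.182) or in any of the 12 fits that left out 1 library (up to 0.230). Adam17 also did not overlap without LPS, at 34.4 to 37.0 FPKM in silenced and 26.4 to 30.6 FPKM in control libraries (adjusted p = 0.136). Of all tested genes, 7.62% after LPS and 9.86% without LPS had every silenced library above every control library. Rhbdf2, which guides Adam17 to the cell surface, was 47.6 ± 1.49 FPKM in silenced and 35.9 ± 1.09 FPKM in control cells after LPS (0.40 ± 0.10, adjusted p = 0.113). LPS raised 3 of the 7 and lowered 2 in control cells, against 15.3% and 32.9% of all genes. In silenced cells it raised 4 and lowered 2, against 13% and 35.5%.

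Downstream of the receptors, all 20 listed signalling adaptors were tested and none passed for silenced against control after LPS (limma), with a median of -0.07. Of the 20, 4 had an unadjusted p under 0.05, as did 1697 of all 13078 tested genes. Those with the smallest p were Casp8, the initiator caspase, at 39.6 ± 2.52 against 30.7 ± 1.74 FPKM (adjusted p = 0.133), and Sharpin, a subunit of the linear ubiquitin ligase, at 5.86 ± 0.62 against 7.47 ± 0.55 FPKM (adjusted p = 0.183). LPS raised 7 and lowered 5 of the 20 in control cells and raised 9 and lowered 4 in silenced cells, where the shares of all genes were 15.3% and 32.9%, then 13% and 35.5%.

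The 11 regulators of Tnf transcript stability, all tested, had a median of 0.12 for silenced against control after LPS. Of these, 1 passed the test, where 0.719% of all genes did. It was Zc3h12a, which encodes Regnase-1, an RNase that degrades inflammatory transcripts. Zc3h12a stood at 43.5, 40.6 and 38.7 FPKM in silenced and 26.2, 24.7 and 24.5 FPKM in control libraries after LPS. The silenced libraries were higher by 0.68 ± 0.08 (limma adjusted p = 0.00724), a call that held in all 12 fits that left out 1 library (adjusted p up to 0.0482). Fitted on the 6 libraries after LPS alone, its adjusted p was 0.0563. The interaction was 0.87 (limma adjusted p = 0.0271), and leaving out 1 library ended that call in 10 of 12 fits (adjusted p up to 0.132). LPS raised 3 and lowered 4 of the 11 regulators in each kind of cell, beside 15.3% and 32.9% of all genes in control and 13% and 35.5% in silenced cells. In none of the 5 lists did a gene pass for silenced against control without LPS (limma). Of their 49 tested genes, 9 had an unadjusted p under 0.05, as did 1565 of all 13078 tested genes.

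**Figure D5:**
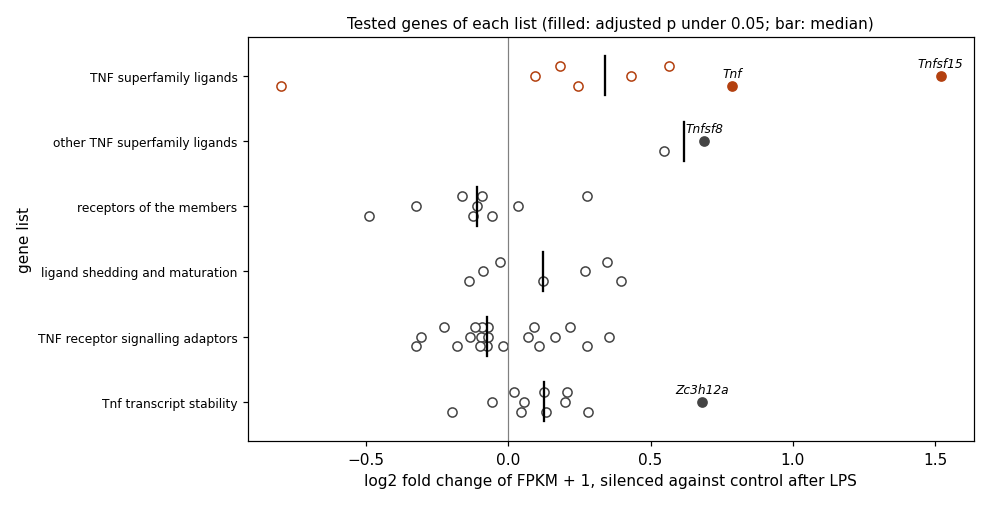
Log2 fold change of FPKM + 1 in silenced against control cells after LPS (horizontal axis) for each tested gene of the ligands and of the 5 other lists, with the list median as a bar and filled circles where the adjusted p was under 0.05. Tnf, Tnfsf15, Tnfsf8 and Zc3h12a are filled, and the medians run from -0.11 for receptors to 0.62 for the 2 tested other ligands. Of these 2, Tnfsf4 reached the level for a test only in silenced libraries after LPS.

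The genes whose pattern over the 12 libraries was most like that of the 2 called ligands were found by Pearson's r of log2(FPKM + 1) among 9734 named genes. Libraries with and without LPS form separate clusters here, so r describes the pattern over the 4 groups and is given with no p. Nearest to Tnf were Cxcl2, a neutrophil chemokine (r = 0.998), Spryd7 (r = 0.998) and Ccl17, a T-cell chemokine (r = 0.997). Cxcl2 had means of 0.76 and 0.75 FPKM without LPS, then 495 FPKM in silenced and 237 FPKM in control cells. After LPS, Spryd7 had closer means, 67.4 FPKM in silenced and 58.8 FPKM in control cells, and Ccl17 had 27.9 and 14.4 FPKM. A high r thus does not mean a silencing difference as large as that of Tnf. Nearest to Tnfsf15 were Csf2, the gene of GM-CSF (r = 0.994), the lipase gene Lipg (r = 0.993) and Cybb, the NADPH oxidase subunit (r = 0.991). Csf2 was listed at 0 in both groups without LPS, with means of 47.7 FPKM in silenced and 9.79 FPKM in control cells after LPS. In the same order, the means after LPS were 7.93 and 3.18 FPKM for Lipg and 170.7 and 112.4 FPKM for Cybb.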

How the data were processed

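The deposited values are FPKM per gene in 12 libraries, which the authors made with HISAT2 and StringTie on mouse build GRCm38, per the submitters' processing notes; versions, annotation release and strand setting were not given in the sources used here. The labels' protocols call the libraries strand-specific. Of 53801 gene records, 53706 IDs were found in GENCODE M21, which gave coordinates. Groups follow the labels' titles.

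FPKM are not counts, so limma 3.58.1 (R 4.3.3) was fitted to log2(FPKM + 1) over all 12 libraries with 1 mean per group and an intensity trend, after a filter of FPKM at least 1 in at least 3 libraries (13078 genes). The log2 scale with this pseudocount understates changes of low genes. P-values are 2-sided and adjusted after Benjamini and Hochberg across all tested genes, with a threshold of 0.05. The procedure was tested on simulated data with independent libraries, for silenced against control after LPS alone. That test does not cover the interaction or libraries that share a culture. The smallest p of an exact permutation test of 3 against 3 is 0.1. Depth was estimated from the lowest repeated FPKM step of genes with 1 transcript; it is rough, and for control replicate 2 without LPS a step smaller by a factor of 2 is also possible.

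Named genes are all members, Trappc4, and of each of 5 gene lists up to 4 that passed after LPS or else the 2 with the smallest p, plus the 3 genes most like each ligand that passed. Members and lists were chosen with earlier results of these data known. Alternatives were another pseudocount, 2 other filters, 2 other scalings, a replicate block, fits of only the groups compared, no trend, and each library left out. Depth as a covariate was added after seeing the data. The result of 1 list of cell type markers is not reported here.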

Additional observations from a re-analysis of the deposited data

Results flagged for a closer look

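The effect of silencing differed between cells with and without LPS for 2 ligands, by the test of the difference itself. For Tnf the difference of the effects was 0.85 (limma adjusted p = 0.0344), and for Tnfsf15 it was 1.42 (limma adjusted p = 0.0161). All 3 silenced libraries were above all 3 control libraries after LPS for both genes, and the groups overlapped without LPS. Leaving out 1 library kept the sign in all 12 fits for both. The Tnf call held without silenced replicate 2 before LPS (adjusted p = 0.0397) or control replicate 3 after LPS (0.0372). It was lost without any of the other 10 libraries, with adjusted p up to 0.132. The Tnfsf15 call was lost without control replicate 2 before LPS (adjusted p = 0.0501), control replicate 1 (0.0676) or 2 (0.0628) after LPS, or silenced replicate 1 (0.0668), 2 (0.0599) or 3 (0.0680) after LPS.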

How the results depend on the processing

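LPS responses of the 6 ligands that rose kept direction and call under every setting that tested them; Lta and Tnfsf10 could not be tested at FPKM of at least 5, and the 2 untested ligands stayed uncalled without a filter. Members called after LPS for silencing numbered 2 under all settings except the fit of only the groups compared, with 0, and the fit without control replicate 3 after LPS, with 3 (Tnfsf9 added). Members called for the interaction numbered 1 with a pseudocount of 0.1 (Tnfsf15 lost), 1 with no filter (Tnf lost, adjusted p = 0.0687), 1 with no intensity trend (Tnf lost, adjusted p = 0.0948), and 0 to 2 with 1 library left out. Genes called for silencing without LPS (28) were 48 with the replicate block, 6 in the fit of only the groups compared, 10 with no trend, 9 with depth as a covariate, 7 with depth and the smaller step, and 3 to 41 with 1 library left out. Genes called after LPS (94) were 38 with quantile normalization, 0 in the fit of only the groups compared (limma; 1622 at an unadjusted p under 0.05), 50 with no trend, 18 with depth, 26 with depth and the smaller step, and 10 to 91 with 1 library left out. Genes called for the interaction (8) were 5 with a pseudocount of 0.1, 4 with no trend, and 0 to 20 with 1 library left out (limma; 1210 to 1419 at an unadjusted p under 0.05 in the 4 fits with 0). The share of interaction calls that were higher was 62.5%, and 83.3% with median-ratio scaling. The causes were not tested.

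Signs turned only for values that had not passed the test. For silencing without LPS, Tnfsf13 was 0.57 with a pseudocount of 0.1 and 0.00071 with depth, and Lta was -0.0235 with depth. The LPS response of Tnfsf12 in control cells was -0.13 with depth, and the interaction of Ltb was -0.0155 with depth and the smaller step. With 1 library left out, silencing without LPS ran from -0.0551 to 0.0657 for Lta, -0.0532 to 0.37 for Ltb, -0.0794 to 1.16 for Tnfsf12 and -0.64 to 0.42 for Tnfsf13. After LPS it ran from -0.0782 to 0.27 for Tnfsf10 and -0.0211 to 0.50 for Tnfsf12. LPS responses in control cells ran from -0.79 to 0.45 for Tnfsf12 and -0.32 to 0.74 for Tnfsf13, and interactions from -0.19 to 0.24 for Ltb, -0.0412 to 0.30 for Tnfsf10 and -0.92 to 0.33 for Tnfsf12.

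Same-numbered libraries of different groups deviated together only weakly (correlation -0.027 to 0.189, over 0.1 in 3 of 18 pairs). The labels do not say that the numbers mark pairs, so the main fit left them out. A library correlated best with its own number, out of 3, in 22 of 36 cases. These included every case between libraries with and without LPS of the same kind of cell. They also included every case between silenced libraries without LPS and control libraries after LPS. No case between control libraries without LPS and silenced libraries after LPS was among them. The numbers may therefore mark pairs. With the replicate block, Tnf and Tnfsf15 passed after LPS (adjusted p = 0.00796 and 0.00529) and in the interaction (0.0486 each). Depth limits Lta, Tnfsf10, Tnfsf14 and Tnfsf15 without LPS, where values are a few fragments.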
